A study of Mus musculus with 6 samples.

Results

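Collagen genes were examined in bulk RNA sequencing (RNA-seq) libraries of mouse dorsal root ganglion (DRG) and neurofibroma tissue. They were taken as every row whose symbol is Col, a chain type number, a and a chain number (such as *Col1a1*), which gave 44 of the 24062 genes in the files. The comparison asked how the absence of *Runx1* and *Runx3* from *Nf1*-deficient Schwann cells (SCs) changes gene expression in these tissues. All 6 libraries came from mice with Cre recombinase under the *Dhh* promoter and, by the protocol, floxed *Nf1* (genotype Nf1fl/fl;DhhCre, 3 libraries). This Cre acts in SCs and their precursors, so that cells outside that lineage keep intact alleles, and which of the collagen-making cells of these tissues had recombined was not measured. The other 3 also carried floxed alleles of both Runx genes (Rx1fl/fl;Rx3fl/fl;Nf1fl/fl;DhhCre in the protocol, without the *Nf1* allele in the genotype field) and are called DKO-labelled here. The strain background was C57BL/6-I129 for all, and the ages of these mice are not given in the sources used here. The tissue field reads DRG for the Nf1fl/fl;DhhCre group and neurofibroma tumor for the DKO-labelled group, while the protocol names DRG/tumors for both, so that a difference of tissue cannot be told apart from genotype. Each library's title carries a number of its own, which reads like an animal number, but no label says that the libraries came from separate mice. For 4 libraries, a pair in each group, the number in the title and that of the deposited counts are exchanged, so which animal a replicate stands for is uncertain while its group is not. If the animals were not separate, the p-values measure only the spread between these samples, which may be technical.

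Collagens are extracellular proteins of 3 chains wound around one another in repeats of glycine and 2 further amino acids. Fibrillar collagens (types I, III and V in nerve) form the rope-like fibrils of connective tissue, type IV forms the sheet of the basement membrane that surrounds each SC and vessel, type VI forms beaded filaments between them, and fibril-associated collagens decorate the surface of fibrils. Neurofibromas are known for a matrix rich in collagen, which is laid down mainly by fibroblasts, and SCs make type IV and type V collagen themselves.

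The deposited counts summed to between 12439296 and 16682194 per library, and 3 counts, the smallest number treated as detected, equalled 0.179 to 0.247 CPM (counts scaled to TMM-adjusted library sizes, the unit of all levels below). *Runx1* was not lower in DKO-labelled replicate 3 (185 CPM) than in the Nf1fl/fl;DhhCre libraries (131, 141 and 172 CPM), against 84.0 and 78.9 CPM in DKO-labelled replicates 1 and 2. *Runx3* was at 19.9, 15.1 and 29.9 CPM against 13.5, 10.3 and 12.1 CPM, so the groups did not overlap. Neither gene passed the adjusted threshold (adjusted p = 0.370 and 0.104, limma-voom). *Nf1*, floxed in both groups by the protocol, was at 302 ± 30.8 and 290 ± 44.5 CPM (SD, n = 3 each). Cells outside the SC lineage keep intact alleles, so the bulk *Runx1* level of DKO-labelled replicate 3 cannot show whether its SCs had recombined. Directions are therefore given for the libraries as labelled. Counts over all collagen genes, and over all genes that modify, cleave, crosslink or bind collagens, are also given without that library. Counts by collagen class are given with it. One DKO-labelled library was sequenced in another run, and the labels leave unclear whether it is replicate 2 or 3. SC markers were present in all libraries (*Sox10* at 195 to 256 CPM), as were those of sensory neurons. Skeletal muscle markers summed to 2159 CPM in Nf1fl/fl;DhhCre replicate 2 and 11189 CPM in DKO-labelled replicate 2, and to between 5.52 and 63.0 CPM in the other 4 libraries. Within a genotype, the chi-square between libraries over its degrees of freedom was 21.7 to 133, more than counting error alone gives. This measure covers counting error only and does not tell biological from technical spread.

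Collagen genes were lower as a family in the DKO-labelled libraries. Their CPM summed to 11144, 9893 and 11781 in Nf1fl/fl;DhhCre replicates 1 to 3. In DKO-labelled replicates 1 to 3 the sum was 6512, 3536 and 4484 CPM. The groups did not overlap, and the means of 10939 ± 961 CPM and 4844 ± 1520 CPM (SD, n = 3 each) differed 2.26-fold. In percent of all counts, collagen transcripts took 0.995 to 1.22% of the Nf1fl/fl;DhhCre libraries and 0.336 to 0.657% of the others. Bulk tissue cannot tell fewer collagen-making cells from less collagen RNA per cell.

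**Figure D1:**
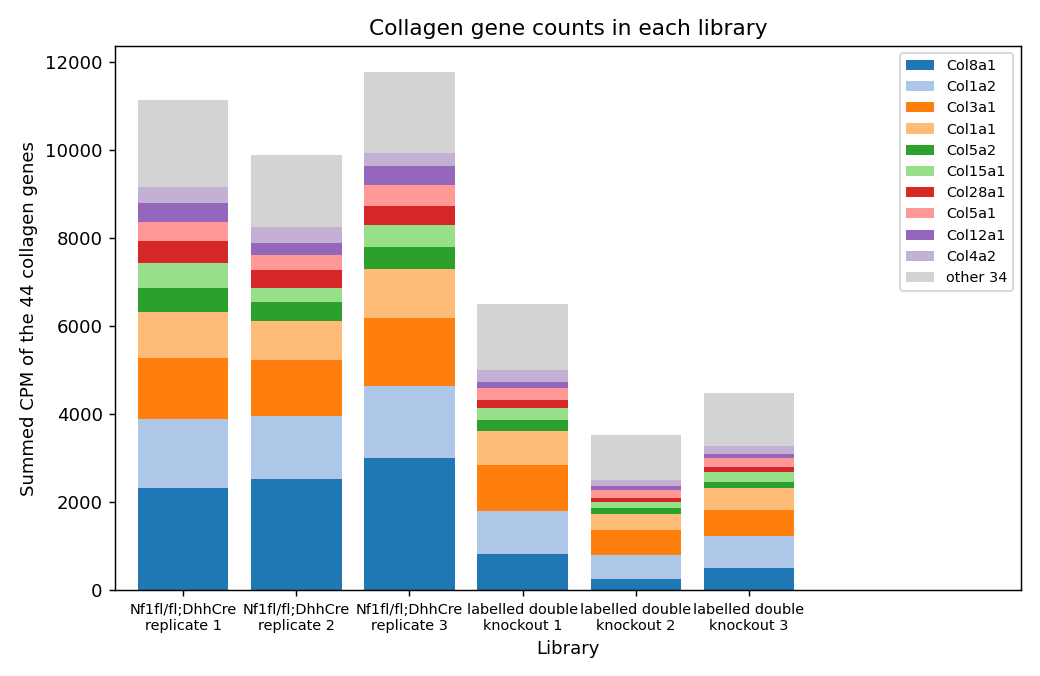
Summed CPM of the 44 collagen genes (vertical axis, linear from 0) in each of the 6 libraries, with the 10 most abundant genes stacked in color and the other 34 in grey. The 3 Nf1fl/fl;DhhCre bars lie between 9893 and 11781 CPM and the 3 DKO-labelled bars between 3536 and 6512 CPM, with the *Col8a1* segment shrinking more than the *Col1a2* or *Col3a1* segment.

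Of the 44 genes, 40 had enough reads to be tested. *Col6a4*, *Col9a1*, *Col13a1* and *Col22a1* did not pass the filter and stayed at or below 2.20 CPM in every library. A gene was called when its adjusted p (limma-voom over all 15652 genes tested, Benjamini-Hochberg) was below 0.05 and its change exceeded 2-fold, which are the thresholds of the study. By this rule 13 collagen genes were lower in the DKO-labelled libraries, 32.5% of those tested, where 5.36% of all genes were called lower. By the same rule 2 were higher, where 8.03% of all genes were called higher. By adjusted p alone, 19 were lower (background 8.22%) and 2 higher (background 11.1%). The ranges of the groups were apart in 23 genes with lower values (background 20.5%) and 3 with higher values (background 21.8%). The median log2 fold change of the 40 genes was -0.80, and that of all genes tested was 0.02.

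The number of calls depended on single libraries. Without DKO-labelled replicate 3, in which *Runx1* was not reduced, 9 collagen genes (22.5%) were called lower, where 2.96% of all genes were. In that fit 2 were called higher, where 7.02% of all genes were. Without DKO-labelled replicate 2, which had the most muscle RNA, 6 (15%) were lower, where 2.04% of all genes were. There 2 were higher, where 4.32% of all genes were. Without Nf1fl/fl;DhhCre replicate 1 only 3 (7.5%) were called lower, and 1.13% of all genes. Without replicate 3 of that group 8 (20%) were, and 3.12% of all genes. The share of all genes called lower was thus also below 5.36% in these 4 fits. Leaving out either of the other libraries raised the number of collagen genes called lower. Without DKO-labelled replicate 1, 16 (40%) were lower, where 3.59% of all genes were. Without Nf1fl/fl;DhhCre replicate 2, 14 (35%) were, where 6.45% of all genes were. In all 6 fits that each omitted 1 library, *Col8a1*, *Col12a1* and *Col28a1* stayed called lower and *Col24a1* and *Col23a1* called higher.

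**Figure D2:**
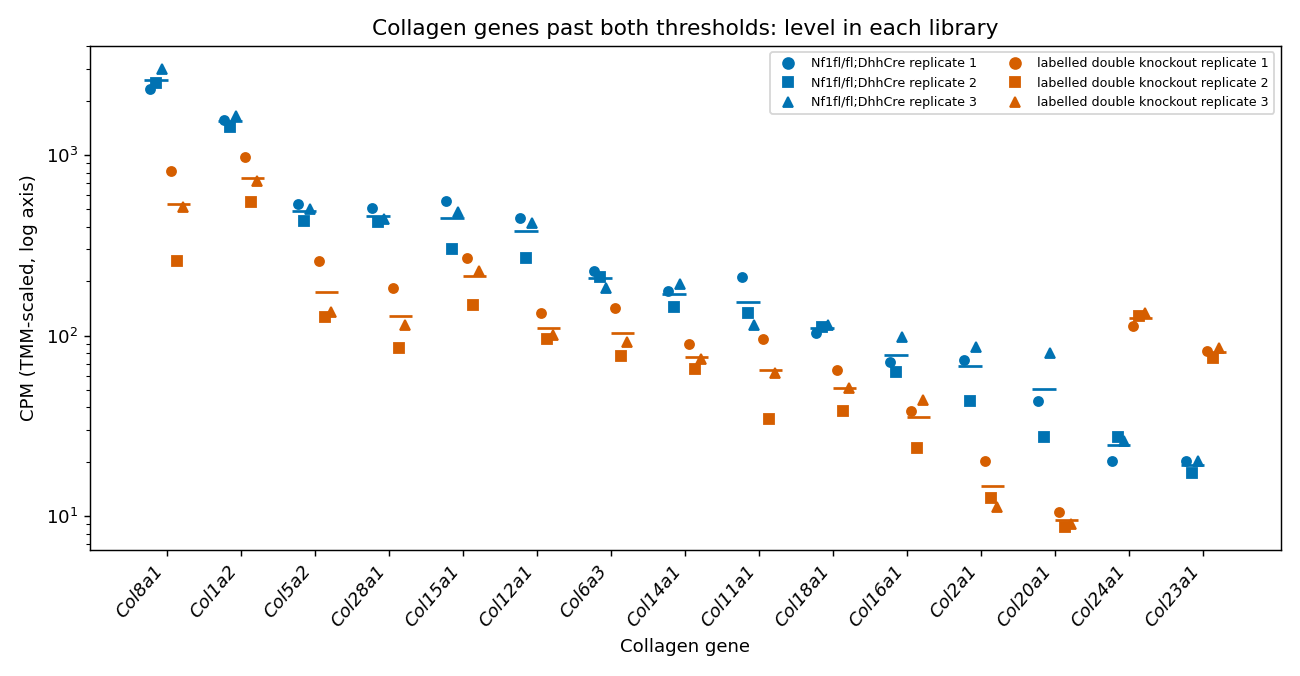
CPM (vertical axis, log scale) of the 15 collagen genes past both thresholds, ordered by mean in the Nf1fl/fl;DhhCre group, with 1 point per library (shape marks the replicate) and a bar at each group mean. Blue points lie above orange points for 13 genes and below them for *Col24a1* and *Col23a1*, with no overlap in any of the 15.

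The upstream sequences of 4 members that the results turn on are shown because the study followed RUNX factors, whose binding letters it gives as TGTGG. They are *Col8a1* and *Col28a1*, which were called lower, *Col1a2*, the most abundant fibrillar chain called lower, and *Col24a1*, which was called higher. Each runs 5′ to 3′ on the strand of the gene from 250 bases before to 50 bases after its start (RefSeq, GRCm38.p6), and capitals mark TGTGG or its reverse complement CCACA.
Col8a1 (chr16:57754688-57754987, minus strand): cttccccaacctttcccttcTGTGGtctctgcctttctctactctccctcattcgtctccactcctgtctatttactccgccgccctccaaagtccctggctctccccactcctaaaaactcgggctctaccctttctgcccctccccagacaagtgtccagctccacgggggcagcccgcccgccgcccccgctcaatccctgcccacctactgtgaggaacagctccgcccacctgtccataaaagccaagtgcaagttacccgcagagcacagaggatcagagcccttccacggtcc
Col28a1 (chr6:8192568-8192867, minus strand): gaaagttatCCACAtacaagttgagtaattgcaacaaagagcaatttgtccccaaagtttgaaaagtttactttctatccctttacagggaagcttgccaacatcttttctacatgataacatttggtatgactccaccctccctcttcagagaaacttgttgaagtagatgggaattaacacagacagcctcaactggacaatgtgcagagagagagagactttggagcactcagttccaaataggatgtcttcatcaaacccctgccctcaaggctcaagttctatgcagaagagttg
Col1a2 (chr6:4505368-4505667, plus strand): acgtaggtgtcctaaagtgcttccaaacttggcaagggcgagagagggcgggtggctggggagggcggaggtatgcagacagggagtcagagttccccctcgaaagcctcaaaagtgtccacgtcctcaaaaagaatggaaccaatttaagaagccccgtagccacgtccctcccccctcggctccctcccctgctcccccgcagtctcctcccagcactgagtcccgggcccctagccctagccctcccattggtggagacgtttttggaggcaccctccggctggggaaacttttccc
Col24a1 (chr3:145292222-145292521, plus strand): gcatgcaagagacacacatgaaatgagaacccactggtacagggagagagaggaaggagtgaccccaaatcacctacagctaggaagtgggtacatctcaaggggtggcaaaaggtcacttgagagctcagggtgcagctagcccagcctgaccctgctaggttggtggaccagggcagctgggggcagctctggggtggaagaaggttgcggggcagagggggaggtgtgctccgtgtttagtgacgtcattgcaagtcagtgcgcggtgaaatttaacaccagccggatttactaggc

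The *Col8a1* and *Col28a1* windows each hold 1 match, and those of *Col1a2* and *Col24a1* hold none. Such windows were found for 35 of the 44 collagen genes, and 19 of these genes (54.3%) had TGTGG or CCACA in at least 1 window. The letters occur in 21 of 38 collagen windows (55.3%) and in 55.9% of all 32851 windows of this length. A match of letters is a description of the sequence and not of binding.

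*Col8a1*, which encodes a short-chain collagen that forms hexagonal networks in the cornea and in vessel walls, carried the largest part of the difference. It lies on the minus strand of chromosome 16 (GRCm38, 57624258 to 57754737). It was at 2331, 2522 and 3007 CPM in Nf1fl/fl;DhhCre replicates 1 to 3. DKO-labelled replicates 1 to 3 had 821, 259 and 518 CPM. All of these were far below the first group, and replicate 2 was the lowest. On the log2 scale it fell by 2.44 (SE 0.37, adjusted p = 0.0111, limma-voom with Benjamini-Hochberg adjustment). Per kilobase of exon, *Col8a1* was the most abundant collagen in the Nf1fl/fl;DhhCre group at 334 ± 44.5 CPM per kb (SD, n = 3). In the DKO-labelled group *Col8a1* was the 3rd at 68.0 ± 36.0 CPM per kb (SD, n = 3), a rank that depends on the exon lengths used. It held 20.9, 25.5 and 25.5% of all collagen counts in the Nf1fl/fl;DhhCre libraries, but 12.6, 7.32 and 11.6% in the DKO-labelled ones. Without *Col8a1* the remaining 43 genes still summed to 8319 ± 821 CPM and 4311 ± 1243 CPM (SD, n = 3 each), a 1.93-fold difference.

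The other network-forming genes were far lower in level. *Col10a1*, a collagen of hypertrophic cartilage, was at 13.3, 13.3 and 12.2 CPM against 8.61, 7.07 and 10.1 CPM in the DKO-labelled libraries. These groups did not overlap, with a change of -0.59 on the log2 scale (SE 0.21) that missed the adjusted threshold (adjusted p = 0.0898, limma-voom). *Col8a2*, the partner chain of *Col8a1*, was at 1.43 to 3.26 CPM in all 6 libraries and the groups overlapped. The ratio of *Col8a1* to *Col8a2* counts per exon length thus ran from 410 to 1011 in the Nf1fl/fl;DhhCre libraries and from 85.9 to 246 in the others.

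Among the fibrillar genes, 4 of 11 were called lower (5.36% of all genes were) and 1 higher (8.03% of all genes). By adjusted p alone, 7 were lower (8.22% of all genes). Without Nf1fl/fl;DhhCre replicate 1, none of the 4 was called lower, where 1.13% of all genes were. *Col1a1* and *Col1a2* encode the chains of type I collagen, the main fibril protein of connective tissue. *Col1a2* was at 1566, 1438 and 1647 CPM in Nf1fl/fl;DhhCre replicates 1 to 3 and at 977, 550 and 717 CPM in the DKO-labelled replicates (log2 fold change -1.09, SE 0.20, adjusted p = 0.0158, limma-voom). *Col1a1* had 1052, 890 and 1116 CPM against 783, 383 and 492 CPM. *Col3a1*, the chain of type III collagen, which forms thin fibrils with type I, had 1386, 1281 and 1530 CPM against 1039, 552 and 593 CPM. *Col1a2* was called in 3 of the 6 fits that omitted a library. The groups were apart in all 3 genes, and in each of them DKO-labelled replicate 1 was the highest of its group. The changes of *Col1a1* (-0.94, SE 0.25, adjusted p = 0.0394, limma-voom) and *Col3a1* (-0.9996, SE 0.24, adjusted p = 0.0287, limma-voom) passed the adjusted threshold but not 2-fold. Per kilobase the Nf1fl/fl;DhhCre means were 155 ± 17.8, 143 ± 12.7 and 125 ± 8.51 CPM per kb (SD, n = 3) for *Col1a1*, *Col3a1* and *Col1a2*. The range of each overlapped with the next, but the order was the same within each library of this group. It depends on the exon lengths used (union over transcripts), which were 6563 bases for *Col1a1* and 12426 bases for *Col1a2*.

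The minor fibrillar chains differed among themselves. Type V collagen sits inside type I fibrils and limits their width. Its chain *Col5a2* was at 534, 430 and 505 CPM against 260, 126 and 135 CPM, and it fell by 1.57 on the log2 scale (SE 0.27, adjusted p = 0.0130, limma-voom). *Col5a1* changed by -0.93 (SE 0.20) and was not past 2-fold, and *Col5a3*, the third chain, changed by -0.21 (SE 0.19) with overlapping groups. Within the same libraries, the ratio of *Col5a1* to *Col5a2* per exon length was 0.897, 0.874 and 1.08 in the Nf1fl/fl;DhhCre group and 1.17, 1.56 and 1.74 in the other. *Col5a2* ends 24.6 kb from *Col3a1* on chromosome 1, and the ratio of *Col3a1* to *Col5a2* moved from 2.80 ± 0.231 to 4.15 ± 0.216 (SD, n = 3 each). The decrease was thus unequal between these neighbors, a comparison within each library that needs no scaling.

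*Col2a1* and *Col11a1* are best known from cartilage. *Col2a1* had 73.6, 43.3 and 86.2 CPM in Nf1fl/fl;DhhCre replicates 1 to 3, against 20.1, 12.7 and 11.2 CPM in the DKO-labelled replicates. This fall of 2.20 on the log2 scale (SE 0.35, adjusted p = 0.0120, limma-voom) was second to *Col8a1* among fibrillar and network genes. *Col11a1* was at 211, 133 and 114 CPM against 95.4, 34.6 and 62.3 CPM (log2 fold change -1.32, SE 0.37, adjusted p = 0.0488, limma-voom). It was called in 1 of the 6 fits that omitted a library. Of 6 cartilage markers, *Acan* was at most 0.726 CPM and *Matn1* and *Matn3* had no reads in any library. *Chad* reached 9.06 CPM in Nf1fl/fl;DhhCre replicate 2 and was at most 1.91 CPM elsewhere. *Lect1* (3.93 to 9.36 CPM against 29.9 to 38.5 CPM) and *Hapln1* (1.28 to 4.94 CPM against 16.1 to 31.4 CPM) were called higher in the DKO-labelled libraries. The part of cartilage in the *Col2a1* difference was not tested. *Col11a2* stayed at or below 1.32 CPM.

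*Col24a1* was the only fibrillar gene called higher. *Col27a1* and *Col11a2* also had positive changes, which were not called. This minor fibrillar gene (chromosome 3, 145292472 to 145552011, plus strand) had 20.3, 27.4 and 26.2 CPM in Nf1fl/fl;DhhCre replicates 1 to 3. It was at 113, 129 and 134 CPM in DKO-labelled replicates 1 to 3, which are close together and far from the first group. On the log2 scale it rose by 2.35 (SE 0.16, adjusted p = 0.00374, limma-voom). *Col27a1*, the other gene of this subclass, was at 109 ± 16.9 and 135 ± 17.5 CPM (SD, n = 3 each) with overlapping groups (0.31, SE 0.16, adjusted p = 0.220, limma-voom).

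*Col23a1*, a transmembrane collagen on chromosome 11 (51289920 to 51583918, plus strand), rose alongside it. Its level was 20.1, 17.4 and 20.1 CPM in the Nf1fl/fl;DhhCre group, then 82.3, 75.2 and 85.9 CPM in the DKO-labelled group. On the log2 scale the rise was 2.08 (SE 0.14, adjusted p = 0.00374, limma-voom). Without DKO-labelled replicate 3 the changes were 2.30 for *Col24a1* and 2.04 for *Col23a1*. Markers of sensory neurons and of myelinating SCs moved with both genes. All 8 of the neuron list were called higher, where 8.03% of all genes were. The 8 summed to 525 to 1009 CPM in the Nf1fl/fl;DhhCre libraries and 2478 to 5544 CPM in the DKO-labelled ones. In percent of that sum, *Col24a1* was at 3.86, 2.71 and 4.88% in the first group and 4.57, 3.96 and 2.42% in the second, and *Col23a1* was at 3.83, 1.72 and 3.75% and 3.32, 2.32 and 1.55%. Both overlapped between the groups on this scale, which rests mainly on *Snap25* (a mean of 448 of 690 CPM in the first group and 2617 of 3757 CPM in the second). Of the 6 myelinating SC markers 5 were called higher (8.03% of all genes were), and the 6 summed to 1133 to 1488 CPM against 2909 to 3466 CPM. In percent of the summed markers of myelinating SCs they did not overlap, at 1.36 to 2.42% against 3.40 to 4.43% for *Col24a1* and 1.35 to 1.65% against 2.47 to 2.59% for *Col23a1*. The part of neurons or of myelinating SCs in the rise was not tested.

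The remaining transmembrane genes were low. *Col25a1*, a collagen of neurons, was at 23.8, 8.76 and 8.85 CPM against 3.59, 3.37 and 7.33 CPM. The groups were apart by a small margin, and the change of -1.39 (SE 0.55, adjusted p = 0.120, limma-voom) missed the threshold. *Col17a1*, a component of hemidesmosomes, ranged from 0.877 to 3.75 CPM and overlapped. *Col13a1* was at most 0.655 CPM.

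Type IV collagen genes, whose chains build the basement membrane, had no calls among 6 tested, where 5.36% of all genes were called lower. By adjusted p alone, 1 of the 6 was lower (8.22% of all genes). The median log2 fold change of the 6 was -0.50, and a difference from other classes was not tested. *Col4a2* had 350, 367 and 309 CPM in Nf1fl/fl;DhhCre replicates 1 to 3, against 271, 138 and 169 CPM in the DKO-labelled replicates (log2 fold change -0.88, SE 0.24, adjusted p = 0.0396, limma-voom). *Col4a1* was at 247, 263 and 225 CPM against 221, 137 and 145 CPM (-0.58, SE 0.19, adjusted p = 0.0740, limma-voom). The groups were apart in both, with DKO-labelled replicate 1 just under the lowest library of the other group for *Col4a1*. These genes lie head to head on chromosome 8, overlapping by 22 bases (*Col4a1* on the minus strand from 11198423 to 11312826, *Col4a2* on the plus strand from 11312805 to 11449287). The ratio of *Col4a1* to *Col4a2* per exon length was 0.626, 0.637 and 0.647 in the Nf1fl/fl;DhhCre libraries and 0.724, 0.880 and 0.759 in the DKO-labelled ones. *Col4a3* and *Col4a4*, which start 72 bases apart on chromosome 1, are chains of kidney and lung basement membranes. Their log2 fold changes were 0.33 (SE 0.23) and -0.44 (SE 0.29), with overlapping groups. *Col4a5* and *Col4a6* on chromosome X stayed at or below 24.3 CPM and were not called. As a class, type IV genes summed to 628 ± 51.9 CPM and 395 ± 125 CPM (SD, n = 3 each), a 1.59-fold difference, against 1.86-fold for the fibrillar class.

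Of the 7 tested fibril-associated genes, 4 were called lower, where 5.36% of all genes were. Without Nf1fl/fl;DhhCre replicate 1 only *Col12a1* was, where 1.13% of all genes were. *Col12a1*, which bridges type I fibrils and other matrix proteins, was at 450, 268 and 418 CPM in Nf1fl/fl;DhhCre replicates 1 to 3. It was at 133, 95.4 and 101 CPM in DKO-labelled replicates 1 to 3 (log2 fold change -1.77, SE 0.23, adjusted p = 0.00919, limma-voom). *Col14a1*, a close relative, had 177, 143 and 193 CPM against 89.6, 65.1 and 74.2 CPM (-1.16, SE 0.17, adjusted p = 0.0107, limma-voom). *Col16a1* had 71.4, 62.9 and 98.5 CPM against 38.3, 23.8 and 43.97 CPM (-1.14, SE 0.27, adjusted p = 0.0283, limma-voom). All of these were apart between groups, and *Col16a1* was called in 2 of the 6 fits that omitted a library. *Col20a1* had a variable level in the Nf1fl/fl;DhhCre group, at 43.3, 27.3 and 80.4 CPM, and a narrow one in the other, at 10.6, 8.72 and 9.04 CPM (-2.27, SE 0.48, adjusted p = 0.0212, limma-voom). It was called in 2 of the 6 fits that omitted 1 library. *Col19a1* was higher in each DKO-labelled library, at 1.91, 4.36 and 6.34 CPM against 0.763, 0.894 and 0.513 CPM, on counts of 8 to 96 reads. Its change of 2.40 (SE 0.70) missed the threshold narrowly (adjusted p = 0.0523, limma-voom). *Col9a2* and *Col9a3*, partners of type II collagen, stayed between 1.97 and 5.41 CPM and overlapped.

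Of the 5 tested beaded-filament genes, 1 was called lower (5.36% of all genes were) and 3 were lower by adjusted p alone (8.22% of all genes). *Col6a3* was at 228, 211 and 184 CPM against 142, 77.1 and 91.8 CPM (log2 fold change -1.05, SE 0.22, adjusted p = 0.0215, limma-voom). *Col6a2* had 193, 159 and 181 CPM against 127, 70.0 and 79.7 CPM and changed by -0.99 (SE 0.22, adjusted p = 0.0244, limma-voom). *Col6a1* changed by -0.92 (SE 0.21, adjusted p = 0.0257, limma-voom). These chains assemble with one another. *Col6a3* was past 2-fold and the other two just short of it. It was called in 1 of the 6 fits that omitted a library, and this call divides genes of nearly equal change. The ratio of *Col6a1* to *Col6a2* per exon length was 1.58 ± 0.142 and 1.66 ± 0.0851 (SD, n = 3 each), with overlapping groups. *Col6a5* ranged from 1.19 to 60.8 CPM among the Nf1fl/fl;DhhCre libraries, and was not called (SE 1.39). *Col6a6* ranged from 0 to 2.98 CPM and overlapped.

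The multiplexins *Col15a1* and *Col18a1*, which lie at the outer face of basement membranes, were both called lower (5.36% of all genes were). *Col15a1* was at 558, 301 and 484 CPM against 270, 147 and 227 CPM (log2 fold change -1.05, SE 0.29, adjusted p = 0.0457, limma-voom) with the lowest library of one group (301 CPM) close to the highest of the other (270 CPM). It was called in 1 of 6 fits that omitted a library. *Col18a1*, the source of the fragment endostatin, had 104, 112 and 114 CPM against 64.3, 38.3 and 51.0 CPM (-1.13, SE 0.19, adjusted p = 0.0127, limma-voom).

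*Col28a1* encodes a collagen described beside the glia of peripheral nerve. It lies on chromosome 6 from 7997808 to 8192617 on the minus strand. It was at 507, 425 and 444 CPM in Nf1fl/fl;DhhCre replicates 1 to 3. DKO-labelled replicates 1 to 3 had 183, 85.7 and 115 CPM, all below the other group. On the log2 scale it fell by 1.91 (SE 0.25, adjusted p = 0.00911, limma-voom). In percent of the summed general SC markers, *Col28a1* was at 32.4, 29.1 and 32.4% in the first group and 9.31, 5.58 and 5.59% in the second, while those markers summed to 1466 ± 97.5 CPM and 1849 ± 275 CPM (SD, n = 3 each), with *S100b* and *Ngfr* of the 7 called higher. *Col26a1*, at 9.36, 4.65 and 13.7 CPM against 11.1, 4.36 and 5.35 CPM, overlapped (adjusted p = 0.625, limma-voom). *Col7a1*, which makes the anchoring fibrils of skin, was at 2.50, 4.05 and 4.55 CPM against 1.195, 4.93 and 2.51 CPM and overlapped too.

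**Figure D3:**
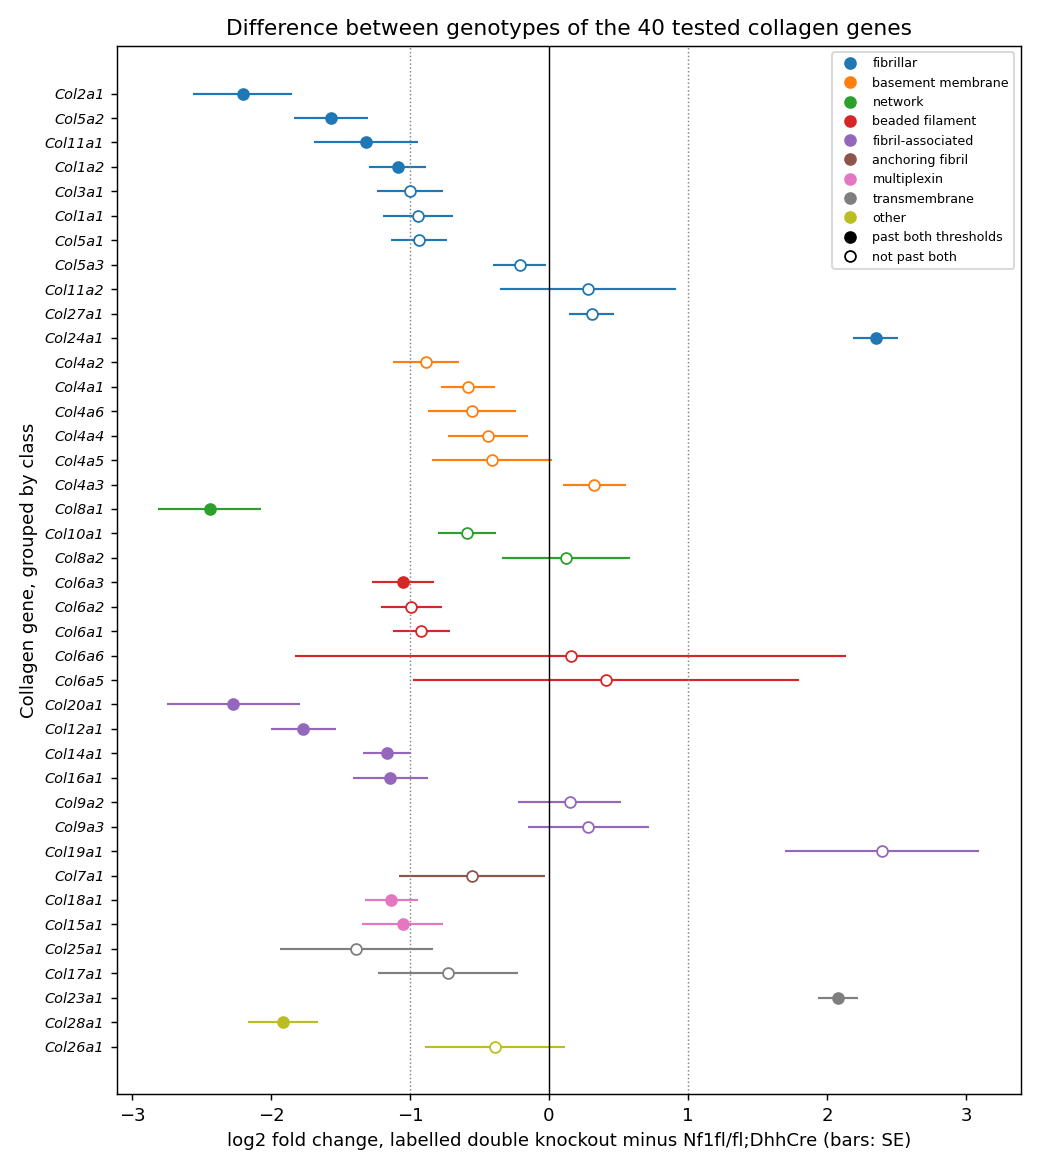
Log2 fold change between DKO-labelled and Nf1fl/fl;DhhCre libraries (horizontal axis) of the 40 tested collagen genes, grouped and colored by class, with bars of 1 SE, dotted lines at 2-fold, filled points past both thresholds and open points not. The 13 genes called lower reach from -1.05 (*Col6a3* and *Col15a1*) to -2.44 (*Col8a1*), no type IV gene is filled, and *Col24a1* and *Col23a1* stand alone as filled points on the right.

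The DKO-labelled libraries also differed among themselves in a shared way. Of the 13 genes called lower, 12 were highest in DKO-labelled replicate 1 and 12 were lowest in replicate 2. Replicate 3, in which *Runx1* was not reduced, was the highest in 1 of them and the lowest in 1. Among all 40 tested genes, replicate 1 was the highest of its group in 26 and replicate 2 the lowest in 29.

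Summed markers of fibroblasts, perineurial cells and macrophages were lower alongside the collagen genes, and those of endothelial and mural cells were not. Fibroblast markers summed to 5447 to 6627 CPM in the Nf1fl/fl;DhhCre libraries and 2430 to 3563 CPM in the DKO-labelled ones. Of these 10 genes, *Dcn*, *Lum* and *Pdgfra* were called lower, *Ogn* was called higher and 6 were not called. Over all genes tested, 5.36% were called lower and 8.03% higher. None of the 10 was at 0 in all libraries. *Dcn* and *Lum*, both called lower, made up most of the sum, with means of 3801 and 1569 CPM of 5864 CPM in the Nf1fl/fl;DhhCre group. In percent of the summed fibroblast markers, all collagen genes together were at 205, 149 and 213% in the first group and 183, 145 and 173% in the second, which overlap. *Col8a1* did not overlap on this scale (38.1 to 54.5% against 10.6 to 23.1%), nor did *Col28a1* (6.42 to 9.31% against 3.53 to 5.13%), *Col12a1* (4.05 to 8.25% against 3.73 to 3.92%) or *Col2a1* (0.653 to 1.56% against 0.429 to 0.564%). Macrophage markers summed to 1067 to 2220 CPM against 166 to 426 CPM, with 9 of 11 called lower. Of the perineurial markers 1 of 5 was called lower (*Cldn1*). Endothelial and mural markers had no calls among 8 each. These scales were chosen after the values were seen, and the part of cell composition in the collagen difference was not tested.

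Genes that modify, cleave, crosslink or bind collagens were examined next. Of 44 such genes 42 were tested, 11 were called lower (26.2%, where 5.36% of all genes were) and 2 higher (4.76%, where 8.03% of all genes were), with a median log2 fold change of -0.74. Without DKO-labelled replicate 3, 8 were lower and 2 higher, where 2.96% of all genes were lower and 7.02% higher. Without Nf1fl/fl;DhhCre replicate 1 the counts were 3 lower and 1 higher, where 1.13% of all genes were called in each direction. Without replicate 3 of that group they were 7 and 2, where 3.12% of all genes were lower and 3.35% higher. Hydroxylases and glycosyltransferases stabilize the helix before secretion. Of these 15, only *Plod3*, a lysyl hydroxylase, was called, at 55.3, 63.9 and 61.3 CPM against 30.5, 25.2 and 26.6 CPM (-1.14, SE 0.15, adjusted p = 0.00862, limma-voom). *Leprel1*, a prolyl hydroxylase and the most abundant of them, changed by 0.03 (SE 0.24), a value that changes sign when libraries are scaled by size alone. Chaperones included *Serpinh1*, which is specific to collagen, at 116, 130 and 143 CPM against 68.6, 39.8 and 36.6 CPM (-1.48, SE 0.24, adjusted p = 0.0117, limma-voom), and *Fkbp10* (-1.11, SE 0.29). *Fkbp10* was called in 0 of the 6 fits that omitted a library. *Mia3*, needed for export of bulky collagens, changed by -0.16 (SE 0.15).

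Procollagen is trimmed at both ends outside the cell. *Bmp1*, which removes the C-terminal end, was at 90.4, 99.0 and 92.2 CPM against 47.0, 21.96 and 29.6 CPM (-1.58, SE 0.24, adjusted p = 0.0113, limma-voom). Its enhancer *Pcolce* (-1.44, SE 0.24) and *Adamts2*, which removes the N-terminal end (-1.51, SE 0.31), were called lower as well, *Adamts2* in only 2 of the 6 fits that omitted a library. *Tll1*, a relative of *Bmp1*, was called higher, at 8.11, 5.18 and 5.97 CPM against 16.1, 17.8 and 21.3 CPM (1.55, SE 0.24, adjusted p = 0.0115, limma-voom). Of the crosslinking oxidases, *Lox* rose and its relatives were not called. It was at 39.9, 59.9 and 38.2 CPM against 204, 109 and 129 CPM (1.65, SE 0.28, adjusted p = 0.0132, limma-voom). *Loxl2*, the most abundant of the 5 in the Nf1fl/fl;DhhCre group, changed by -0.75 (SE 0.18), short of 2-fold.

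Among 9 tested collagen receptors, 5 were called lower, where 5.36% of all genes were. *Ddr2*, a kinase activated by fibrillar collagen, was at 217, 185 and 213 CPM against 101, 96.3 and 75.5 CPM (-1.19, SE 0.15, adjusted p = 0.00848, limma-voom). *Mrc2*, which takes up collagen fragments (-1.50, SE 0.20), and the integrin chains *Itga1* (-1.12, SE 0.17) and *Itga10* (-1.37, SE 0.36) were called too, *Itga10* in only 1 of the 6 fits that omitted a library. *Lair1*, an inhibitory receptor of leukocytes, fell by 2.41 on the log2 scale (SE 0.45), beside the macrophage markers given above. *Itga1* and *Lair1* were each called in 4 of the 6 fits that omitted a library. Without DKO-labelled replicate 3, *Itga1* changed by -0.96, short of 2-fold, and *Itga10* missed the adjusted threshold (adjusted p = 0.113, limma-voom). *Ddr2*, *Mrc2* and *Lair1* stayed called in that fit. *Itgb1*, the shared beta chain of these integrins, changed by -0.65 (SE 0.12), below 2-fold.

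**Figure D4:**
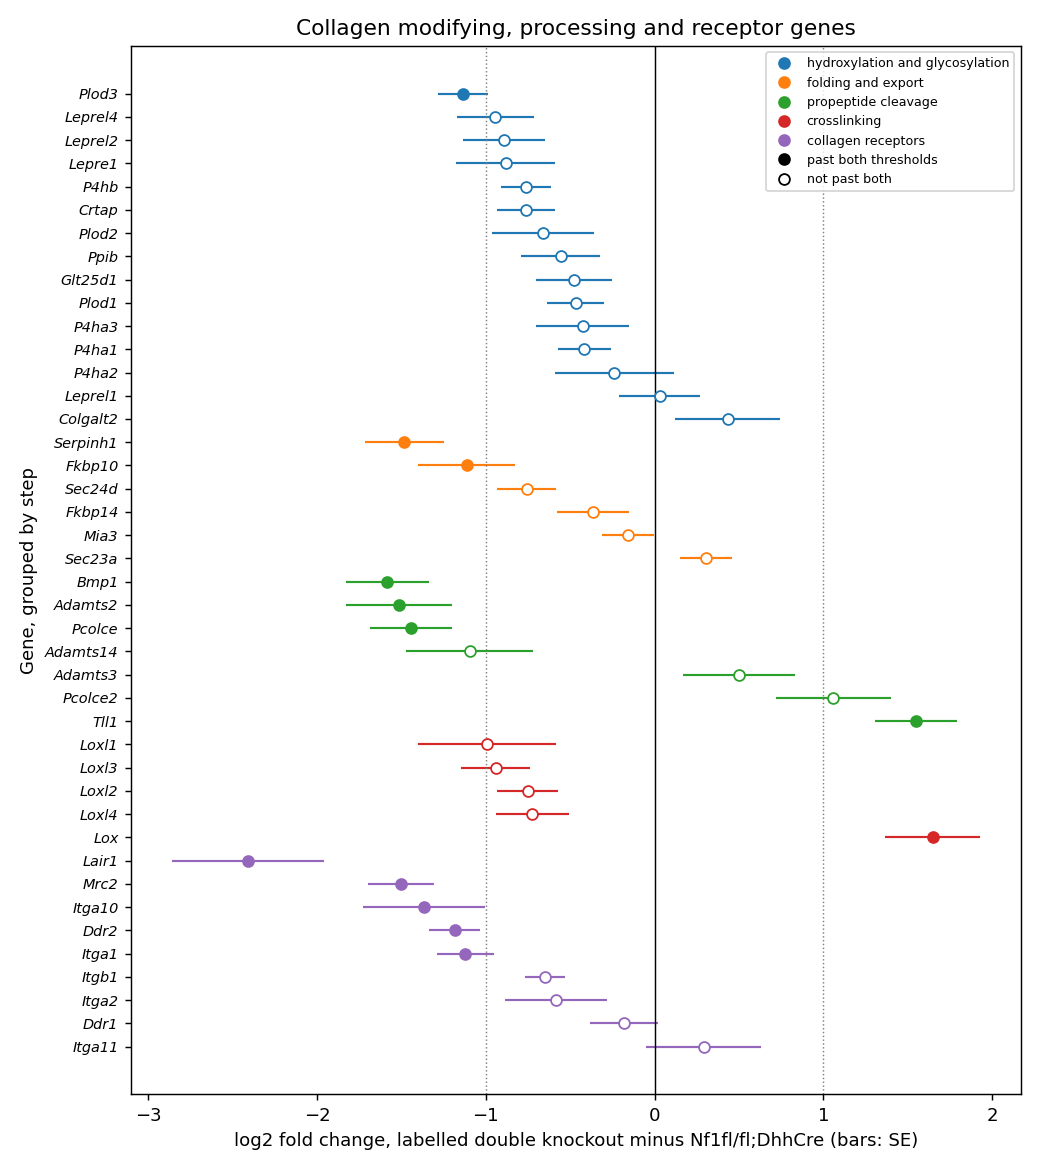
Log2 fold change (horizontal axis, bars of 1 SE, dotted lines at 2-fold) of the 42 tested genes that modify, export, cleave, crosslink or bind collagens, grouped and colored by step. Filled points passed both thresholds: 11 lie on the left, down to *Lair1* at -2.41, and *Lox* (1.65) and *Tll1* (1.55) on the right.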

How the data were processed

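RNA of mouse DRG/tumors was amplified with the Ovation RNA-Seq System, made into Nextera XT libraries and sequenced on both ends. The authors aligned reads to mm10 with TopHat and deposited raw counts per gene from featureCounts, 1 library per file. The annotation, strandedness and treatment of multiply aligned reads are not given in the sources used here.

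Counts were analysed in R 4.3.3 with edgeR 4.0.16, limma 3.58.1 and, as an alternative, DESeq2 1.42.0. Genes passed filterByExpr (minimum count 10, minimum total 15), were scaled by TMM (factors 0.950 to 1.04) and entered limma-voom. The study names TMM and limma-voom, while the filter and a model with only genotype were chosen here. P-values were adjusted over all 15652 genes by the Benjamini-Hochberg method. CPM are counts over TMM-scaled library sizes. SE are those of the moderated fit. Gene positions and exon lengths (union over transcripts) came from GENCODE M21 (GRCm38, the same build as mm10) and promoter windows from RefSeq. Levels, ranks and ratios per exon length depend on these union lengths, while the fold of a gene or ratio between groups does not. At most 6.07% of the exon bases of a collagen gene (*Col9a3*) overlapped another gene. Counts of 3 and CPM floors cover counting error only. The steps were tested on simulated data. Python 3.11.15 with matplotlib 3.10.9 made the figures.

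The members, lists and tests were chosen with earlier results of these data known. Values in every library are given for collagen genes called, the 2 most abundant of each class and *Col1a1*, *Col1a2*, *Col3a1*, *Col4a1*, *Col4a2* and *Col8a1*. From the lists of collagen modification, cleavage, crosslinking and receptors, the genes called and the most abundant of each are named. Marker lists are given by counts and sums, and the markers named were chosen after their values were seen. Classes follow general knowledge, and lists hold older and newer symbols. Markers of bone (0 of 3 tested genes called) and adipocytes (0 of 5) were also summed, at 3.54 to 36.3 CPM and 12.7 to 499.7 CPM per library. The comparison was repeated with DESeq2, its size factors, edgeR's quasi-likelihood test, library size only, CPM above 1 in at least 3 libraries, no filter, sample quality weights, unadjusted p and leaving out each library.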

Additional observations from a re-analysis of the deposited data

How the results depend on the processing

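No paired analysis was possible because the labels give no replicate numbers that are shared between the groups. With all 6 libraries kept, 12 to 17 collagen genes were called lower and 2 to 3 higher over 8 alternatives. The share of all genes called was not counted in these 8, so the counts cannot be set against it. Of the 15 called genes, 14 were called in each of the 8, while *Col11a1* was not past both thresholds in 1. The alternative of unadjusted p uses the main fit and could not lose a call. Leaving out 1 library at a time gave 3 to 16 collagen genes lower and 2 to 3 higher, and 3 to 12 genes of the other lists lower and 1 to 2 higher. In these fits 1.13 to 6.45% of all genes were called lower and 1.13 to 8.1% higher. The mean of the log2 collagen sums, a measure other than the ratio of means given above, fell by 1.22, by between 1.01 and 1.45 when 1 library was left out, by 1.29 with library size only, and by 1.23 with DESeq2 size factors. Of 574 refitted changes of 41 named genes, 498 kept direction and call, 55 lost the call, 15 gained it and 6 changed sign. The last were *Leprel1* (-0.047 with library size only, -0.031 with sample quality weights, and -0.14 to 0.21 with 1 library left out), *Col26a1* (-0.79 to 0.0048 with 1 library left out) and *Mia3* (-0.24 to 0.011 with 1 library left out), none of them called. Scaling by library size only moved the median of all genes from 0.02 to -0.06. Fewer samples in a fit leave fewer degrees of freedom, and the cause of the lost or gained calls was not tested. The 4 untested genes had too few reads at this depth to pass the filter.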
